A study of Mus musculus with 6 samples.

Results

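Alveolar type 2 cells make and store pulmonary surfactant, and 10 genes of that programme were followed here among 21887 protein-coding genes: Sftpa1, Sftpb, Sftpc, Sftpd, Abca3, Lamp3, Slc34a2, Lpcat1, Cebpa and Napsa. They are known type 2 genes, and the rule that names them uses no measured value, although it was written with earlier results of these data known. For each gene, the domain was the mm10 gene body plus up to 50 kb on each side, cut midway to the next coding gene, and the length of sequence under H3K27ac peaks in that domain was measured. Acetylation of histone H3 at lysine 27 (H3K27ac) marks active promoters and enhancers, and was mapped with CUT&RUN, where a nuclease tethered to an antibody cuts out the DNA around the mark. All cells were from embryonic mouse lungs at E16.5, counted in embryonic days, out of timed matings of Myrf Fl/Fl mice. The labels name no Cre recombinase for these matings, and the series' design text describes wildtype cells.

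There were 2 mesothelium libraries, made from PDPN+EPCAM-CD45-CD31-DAPI- cells, and 2 epithelium libraries, made from PDPN+EPCAM+CD45-CD31-DAPI- cells. Mesothelium is the cell layer that covers the lung. Lungs were pooled, and whether the replicates are separate pools is not stated, so the spread behind each p-value may be a technical one. The epithelial gate required podoplanin (PDPN), which in the mature alveolus marks type 1 and not type 2 cells, so the epithelium was not sorted for type 2 cells. In such a bulk sample, fewer cells with an acetylated gene and less acetylation per cell cannot be told apart. The sample titles give 25k and 100k cells for mesothelium replicates 1 and 2, and 100k and 200k cells for epithelium replicates 1 and 2, while the protocol text gives another range. A pair of IgG libraries from epithelial cells was not analysed here.

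The lists held between 39010 and 47873 peaks that covered 35.7 to 44.4 Mb per library. The lowest −log10 q in a list was 1.00 to 1.03, so weak peaks are included. Read depth is unknown, because peak lists hold no counts, and a domain without a peak is not a domain without acetylation. The labels were checked against marker lists. All 15 epithelium markers had a peak in both epithelium libraries, and 5 of 14 tested were longer in epithelium, among them Nkx2-1, Shh, Spint2 and Cdh1. Of 14 tested mesothelium markers, 7 were longer in mesothelium, among them Gpm6a, Wt1, Bnc1 and Cpe. Another 4 had a log2 difference above 0 without passing, and 2 of these, Msln and Krt8, were higher in both epithelium libraries than in both mesothelium libraries. Krt8 stood on both the mesothelium and the epithelium marker lists. The summed length of the epithelium markers was 25.1 and 10.4 kb in mesothelium replicates 1 and 2, against 116.4 and 132.6 kb in epithelium. Mesothelium replicate 1 thus held more epithelium-marker acetylation than replicate 2, and 5 and 7 of the 15 markers had no peak in these libraries. Of 6 tested endothelium markers, 2 (Tek and Kdr) were longer in mesothelium, and of 7 tested mesenchyme markers 1 (Col3a1), and none was longer in epithelium. Other members of these lists leaned the other way without passing, such as Erg, with 0.317 and 3.03 kb in epithelium and no peak in mesothelium. Erg, Msln and Krt8 were named after their values were seen. The 10 immune markers summed to 0.530 to 1.74 kb in the 4 libraries, and none was long enough to test, in cells sorted as CD45-.

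Surfactant is a film of phospholipid and protein that lowers surface tension in the alveolus. Type 2 cells assemble it in lamellar bodies, secrete it, and take part of it back. Its genes are driven by lung epithelial factors such as NKX2-1, FOXA and C/EBP proteins, and their expression rises late in gestation, as the lung prepares for air breathing.

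Most of the 10 type 2 genes already had listed H3K27ac peaks, many of them weak, somewhere in their domains in E16.5 epithelium. Of the 74 epithelium peaks in these domains, 23 had a −log10 q of 2 or more. The domain of 9 genes held a peak in both epithelium libraries, against 42.6% of all coding genes, and only Sftpc lacked one in epithelium replicate 1. The domains spanned 5.49 to 109 kb, longer ones can hold more peaks, and the 42.6% is not matched for length. At Lamp3 and Napsa, 2 of the 9 genes, the peaks of the epithelium libraries shared no base. In mesothelium, 3 genes (Sftpb, Lpcat1 and Cebpa) held a peak in both libraries, against 41.5% of coding genes. The median length over all 10 genes was 2.97 and 2.89 kb in the epithelium libraries and 0.815 and 0 kb in the mesothelium libraries. Over all coding genes these medians were 0.378, 0.364, 0.315 and 0.383 kb. Both epithelium libraries exceeded both mesothelium libraries at 8 of the 10 genes, and Sftpc and Napsa were the exceptions. This pattern was shown by 14.8% of all coding genes, many of them without enough length under peaks to be tested. Among the 10481 domains that were long enough for the test described below, 25.5% showed it. The domains of all 8 genes were among those tested. At 2 genes, Sftpd and Lamp3, both epithelium libraries and neither mesothelium library held a peak, against 3.26% of coding genes.

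**Figure D1:**
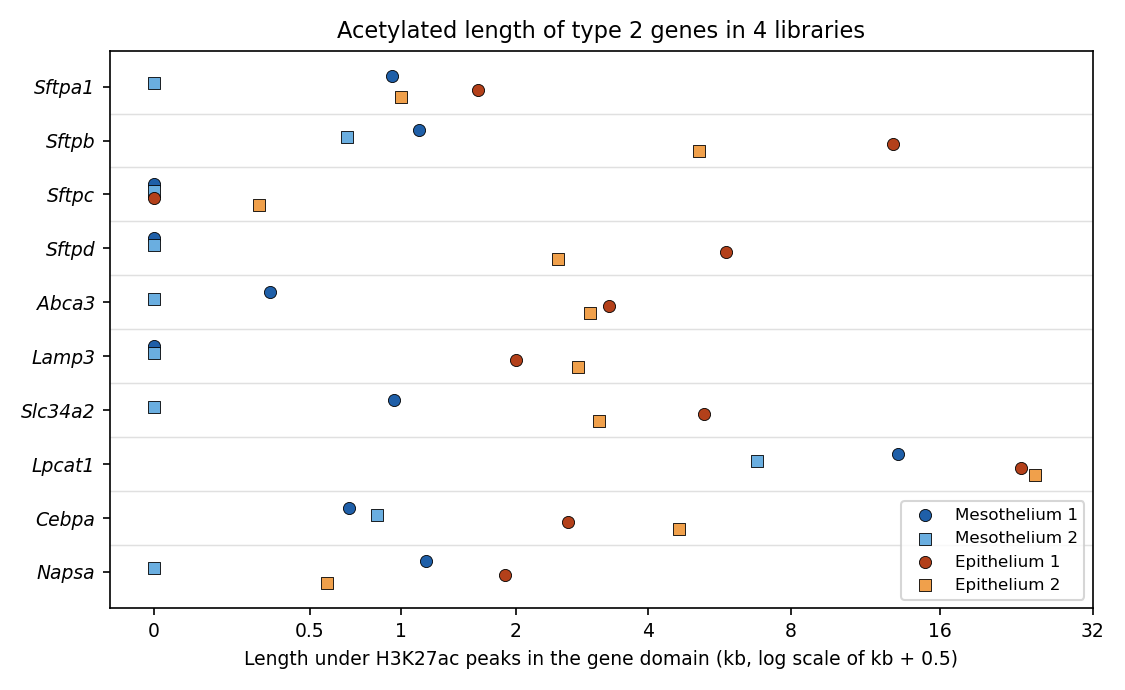
Kilobases under H3K27ac peaks in the domain of each of the 10 type 2 genes, with 1 point per library on a log scale of kb + 0.5. Epithelium libraries (orange) lay above mesothelium libraries (blue) at 8 genes, overlapped them at Napsa, and at Sftpc a single library held 0.299 kb.

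In the test over all 10481 domains whose mean over the libraries reached 0.5 kb, Sftpb and Sftpd were longer in epithelium, at a Benjamini-Hochberg adjusted p under 0.05 from limma. The background was 2.53% of tested domains called longer in epithelium and 1.41% called longer in mesothelium. Of the 10 genes, 9 were long enough to be tested, and none was longer in mesothelium. At an unadjusted p under 0.05 there were 7 of these 9, all longer in epithelium, against 9.58% of tested domains. A gene that entered the test mainly through its epithelium libraries had to differ, so these counts are descriptions. Sftpd and Lamp3, without a peak in mesothelium, entered through epithelium alone. Log2 differences below are of log2(kb + 0.5) after centring each library on its median, epithelium minus mesothelium, and understate differences of short domains.

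Sftpb (chromosome 6, 72304610 to 72314373, mm10) encodes surfactant protein B, a hydrophobic protein that spreads phospholipid at the air surface and without which newborns cannot breathe. Its 46.3 kb domain held 12.9 and 5.14 kb under peaks in epithelium replicates 1 and 2, and 1.13 and 0.683 kb in mesothelium replicates 1 and 2. Both epithelium libraries were above both mesothelium libraries, although the epithelium pair itself spread widely (9.02 ± 5.48 kb, SD, n = 2). The log2 difference was 2.59 (SE 0.64, a 6.01-fold difference on that scale, adjusted p = 0.0218, limma). Without epithelium replicate 1 it was 2.05 with an adjusted p of 0.292. The call held in 9 of 18 alternatives (limma adjusted p 0.00431 to 0.535).

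The acetylation of Sftpb that both epithelium libraries shared lay upstream of the gene. Merged over libraries, 3 regions had peaks in both: a 2.60 kb region 29.8 kb upstream, a 2.43 kb region 25.5 kb upstream and a 1.05 kb region 11.1 kb upstream of the start. The middle one (chromosome 6, 72276652 to 72279086) had no peak in mesothelium. The outer regions also had a peak each in mesothelium replicate 1, of 0.5 and 0.627 kb, and none in replicate 2. The region 11.1 kb upstream held the strongest peak of any of the 10 domains, with a deposited fold enrichment of 5.53 and a −log10 q of 4.76 in epithelium replicate 2. No other of the 74 epithelium and 25 mesothelium peaks in these domains reached a −log10 q of 4. These upstream regions lie between Sftpb and Atoh8, 68.8 kb away, and peaks alone do not say which gene they serve.

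At the Sftpb start itself the epithelium libraries disagreed. Replicate 1 had a 5.39 kb peak across the start and the front of the gene and a 3.20 kb peak across its end, and replicate 2 had no peak at either place. Mesothelium replicate 2 had peaks of 0.363 and 0.320 kb inside the same intervals. The length of Sftpb in epithelium replicate 1 thus owed 5.39 kb to the first of its 2 peaks there. It owed more to the second, most of which lay inside the domain, and epithelium replicate 2 lacked both.

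Promoter sequence is shown for the 4 genes with a peak over the 250 bases before the start in at least 1 epithelium library (Sftpb, Slc34a2, Lamp3 and Lpcat1) and, for contrast, for Sftpa1, which had none. The last of these choices and the widening to 1 library were made after the values were seen. Sequences are from RefSeq (GRCm38.p6, the assembly named mm10), run 5′ to 3′ on the gene's strand and end at the base before the start. Capitals mark matches on either strand to sequences that known factors can bind. For NKX2-1 these were CTCAAG and also CAAGTG. For FOXA proteins they were TGTTTAC and also TGTTTGC and also TATTTAC. C/EBP proteins were searched with TTGCNNAA, GATA proteins with AGATAA and also with TGATAA, SREBP with TCACNCCAC, and the TATA box with TATAAA. No match overlapped a match to another of these motifs.

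Sftpb covers chr6:72304360-72304609 on the + strand, Sftpa1 chr14:41131538-41131787 (+), Slc34a2 chr5:53049103-53049352 (+), Lamp3 chr16:19706366-19706615 (-) and Lpcat1 chr13:73466981-73467230 (+).
Sftpb: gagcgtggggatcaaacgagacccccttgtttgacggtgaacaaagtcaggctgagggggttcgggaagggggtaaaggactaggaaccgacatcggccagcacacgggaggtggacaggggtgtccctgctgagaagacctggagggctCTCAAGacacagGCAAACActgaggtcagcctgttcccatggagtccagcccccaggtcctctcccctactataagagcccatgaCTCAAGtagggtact
Sftpa1: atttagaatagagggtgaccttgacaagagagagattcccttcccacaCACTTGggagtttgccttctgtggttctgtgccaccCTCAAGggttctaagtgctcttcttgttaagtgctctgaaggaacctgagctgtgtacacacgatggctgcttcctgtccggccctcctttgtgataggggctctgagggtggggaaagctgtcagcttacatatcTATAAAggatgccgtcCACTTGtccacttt
Slc34a2: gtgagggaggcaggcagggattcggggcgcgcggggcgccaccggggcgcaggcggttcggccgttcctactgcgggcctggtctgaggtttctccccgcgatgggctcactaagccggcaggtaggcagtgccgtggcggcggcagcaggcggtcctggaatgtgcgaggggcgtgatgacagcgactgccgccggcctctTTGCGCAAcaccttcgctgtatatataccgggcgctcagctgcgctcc
Lamp3: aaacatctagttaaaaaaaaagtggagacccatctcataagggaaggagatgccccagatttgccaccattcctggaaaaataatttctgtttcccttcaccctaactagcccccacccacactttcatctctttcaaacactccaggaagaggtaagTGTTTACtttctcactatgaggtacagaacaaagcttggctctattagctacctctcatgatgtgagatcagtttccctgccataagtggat
Lpcat1: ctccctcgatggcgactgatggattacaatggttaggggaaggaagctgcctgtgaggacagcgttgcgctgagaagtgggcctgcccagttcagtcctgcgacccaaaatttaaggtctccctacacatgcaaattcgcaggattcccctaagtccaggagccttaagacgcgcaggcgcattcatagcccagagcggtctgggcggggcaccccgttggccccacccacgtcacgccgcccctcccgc

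The Sftpb window held CTCAAG at positions -100 and -15 from the start and, between them, a reverse-strand match to the FOXA sequence TGTTTGC at -88. Sftpa1 held the first NKX2-1 sequence at -166 and a reverse-strand match to the second at -202 and -14. It also held TATAAA at position -30. Slc34a2 held TTGCGCAA, which reads the same on both strands, at -48, and Lamp3 held TGTTTAC at -92. Lpcat1 held none of the 10 motifs. Of 21263 such windows of coding genes, 13.0% held the first NKX2-1 sequence and 11.2% the second, 9.09% the C/EBP sequence and 11.6% the TATA box. The 3 FOXA sequences were in 2.62%, 3.93% and 2.37% of windows in the order given. The last of these, both GATA sequences (8.81% and 6.94%) and the SREBP sequence (1.01%) had no match in the 5 windows shown. Among type 2 genes whose windows are not shown, Abca3 held the SREBP sequence at -225 and Cebpa held TATAAA at -30. These are matches of letters and say nothing of binding. Matches and peaks did not always go together: Sftpa1, with 4 matches, had no peak over its window in any library, and Lpcat1, with none, had a peak in both epithelium libraries. Over the windows not shown, Abca3 had no peak in any library, and Cebpa had a peak in mesothelium replicate 2 alone.

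Sftpc (chromosome 14, 70520941 to 70524081) encodes surfactant protein C, the other hydrophobic surfactant protein and the usual marker of the type 2 lineage. Its acetylated length was the shortest of the 10 genes in both epithelium libraries. No peak lay in the domain in epithelium replicate 1 or in either mesothelium library, and epithelium replicate 2 held 0.299 kb, or 5.45% of the short domain, the edge of a 1.10 kb peak that began 1.93 kb above the gene and ran on toward Lgi3. That peak was weak (fold enrichment 3.17, −log10 q 1.19). The Sftpc domain was the smallest of the 10, at 5.49 kb, because Bmp1 lies 0.224 kb away and Lgi3 4.47 kb away. Without the midway limit, in the gene and 50 kb on each side, there were 0.379 and 4.46 kb in the epithelium libraries, and 0 and 0.723 kb in mesothelium. The neighbours were short too: Bmp1 held 0.379 and 1.90 kb in epithelium against 0 and 0.370 kb in mesothelium, and Lgi3 0 and 1.27 kb against 0 and 0.353 kb. Sftpc was too short to be tested.

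Sftpd and Sftpa1 encode the surfactant collectins, lectins of innate defence that bind sugars on microbes, and lie near each other on chromosome 14 with Mbl1 between them. Sftpd (41172212 to 41185198) held 5.87 and 2.52 kb in the epithelium libraries and no peak in either mesothelium library. The epithelium mean was 4.20 ± 2.37 kb (SD, n = 2), and the difference passed the test (adjusted p = 0.0251, limma). Sftpd entered that test through its epithelium libraries alone, so the direction was fixed by the filter and the call is a description. No fold is given against a group without a peak. The call was lost without epithelium replicate 1 (adjusted p = 0.34) or replicate 2 (adjusted p = 0.0743), and it held in 7 of 18 alternatives (limma adjusted p 0.0105 to 0.34). The epithelium libraries both had a peak in 1 merged region, 2.00 kb wide and 12 kb above the gene (41197182 to 41199185), with a −log10 q of 2.18 and 2.04. Of that region, 1.03 kb lay under both peaks. The other peaks, 5 in replicate 1 and 1 in replicate 2, did not overlap between the replicates.

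Sftpa1 (chromosome 14, 41131788 to 41136373) held 1.62 and 0.999 kb in the epithelium libraries, and 0.940 and 0 kb in mesothelium. The groups did not overlap, but the lower epithelium value exceeded the higher mesothelium value by little, and the difference did not pass (adjusted p = 0.567, limma; log2 difference 1.01, SE 0.84). The shared epithelial acetylation lay at the far end of the gene, in a 1.51 kb region that also had a peak in mesothelium replicate 1. Its −log10 q was 2.54 and 2.2 in epithelium and 1.15 in mesothelium replicate 1. Mbl1, a mannose-binding lectin gene between the collectins, held 1.72 and 4.10 kb in epithelium against 1.52 and 0 kb in mesothelium (adjusted p = 0.306, limma).

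Abca3, Lamp3 and Napsa serve the lamellar body, the organelle that stores surfactant. Abca3 (chromosome 17, 24351921 to 24410204) encodes the transporter that loads phospholipid into it. It held 3.29 and 2.98 kb in the epithelium libraries, and 0.337 and 0 kb in mesothelium, and the epithelium replicates lay close together (3.13 ± 0.216 kb, SD, n = 2). The log2 difference, 2.43 with an SE of 0.76, did not pass (adjusted p = 0.0772, limma). Both replicates had a peak in a 2.30 kb merged region inside the gene, 0.447 kb past the start (24352470 to 24354771), without a peak in mesothelium. Of that region, 0.719 kb lay under the peaks of both. Abca17, which overlaps Abca3, had no peak in epithelium, and Rnps1 on the other side held 0 and 1.25 kb in epithelium against 1.63 and 2.71 kb in mesothelium.

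Lamp3 (chromosome 16, 19653381 to 19706365) encodes a lysosome-associated membrane protein of lamellar bodies. It held 2.01 and 2.79 kb in the epithelium libraries and no peak in mesothelium. The difference did not pass (adjusted p = 0.0973, limma). The epithelium peaks, 4 in replicate 1 and 3 in replicate 2, all lay in the gene or across its start, but none overlapped between the replicates. Replicate 2 alone had the peak across the start, 1.63 kb wide.

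Napsa (chromosome 7, 44572445 to 44586846) encodes napsin A, an aspartic protease that helps to process the precursors of surfactant proteins. It held 1.88 and 0.579 kb in epithelium against 1.18 and 0 kb in mesothelium. The groups overlapped, since mesothelium replicate 1 exceeded epithelium replicate 2, and the difference did not pass (adjusted p = 0.713, limma; log2 difference 0.75, SE 0.87). No peak was shared by the epithelium libraries. The 1.18 kb peak of mesothelium replicate 1 overlapped a 0.757 kb peak of epithelium replicate 1. Without mesothelium replicate 2 the log2 difference turned to -0.22 (adjusted p = 0.945, limma).

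**Figure D2:**
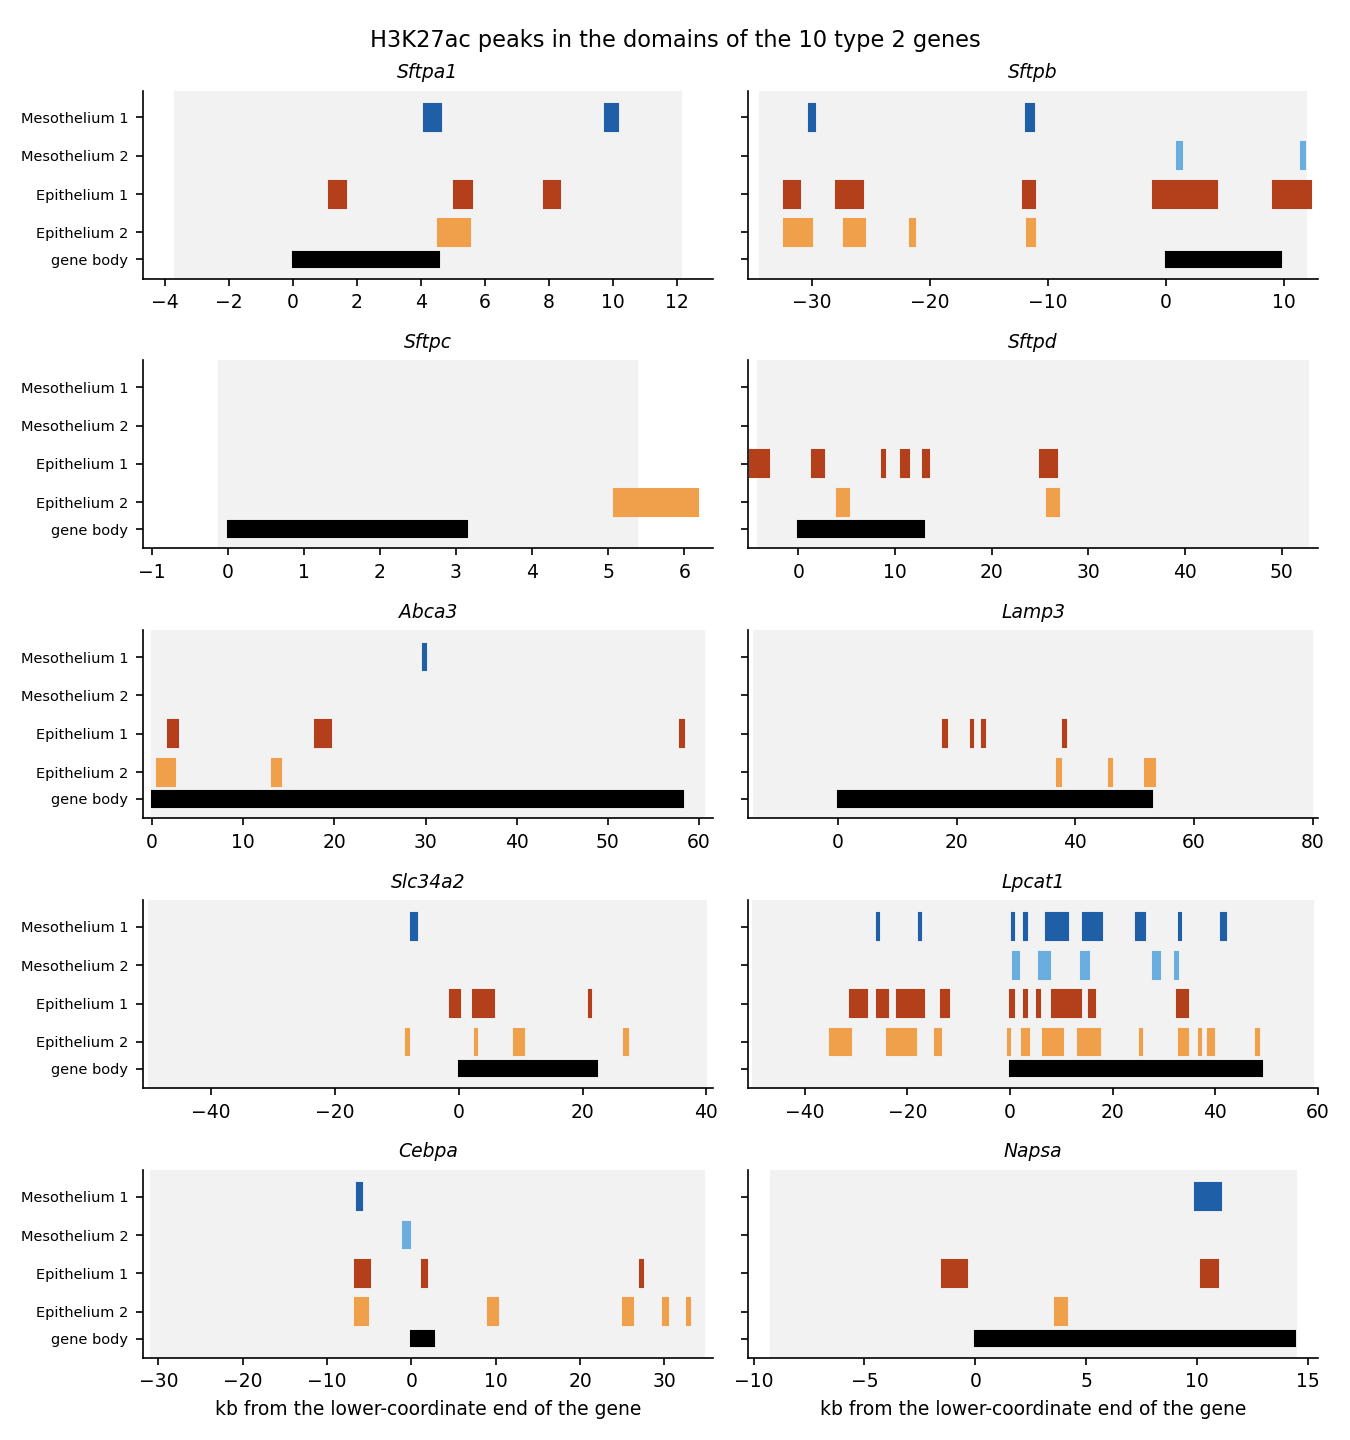
Peaks of the 4 libraries across the domains of the 10 type 2 genes, in kb from the lower-coordinate end of each gene (black bar, gene body; grey, domain; 1 row per library). Epithelial peaks of the 2 replicates overlap upstream of Sftpb, Lpcat1 and Cebpa, above Sftpd and at the end of Sftpa1. They also overlap within Abca3, Slc34a2 and Lpcat1, while those of Lamp3 and Napsa fall at different places in the 2 replicates.

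Slc34a2 (chromosome 5, 53049353 to 53071664) encodes the sodium-phosphate cotransporter of type 2 cells, which takes up phosphate released from surfactant phospholipid. It held 5.29 and 3.13 kb in the epithelium libraries, and 0.952 and 0 kb in mesothelium, without overlap. The log2 difference was 2.37 (SE 0.75, adjusted p = 0.0823, limma), and it passed without mesothelium replicate 1 (3.19, adjusted p = 0.0181). Without mesothelium replicate 2 it was 1.5 (adjusted p = 0.35, limma). Both epithelium libraries had a peak in a region of the first part of the gene (53051730 to 53055000), 3.27 kb long in replicate 1 and only 0.379 kb in replicate 2. Epithelium replicate 1 alone had a peak over the start, where the printed window holds TTGCGCAA. Sel1l3, the next gene, held 4.6 and 3.97 kb in epithelium against 0.359 and 1.67 kb in mesothelium (adjusted p = 0.171, limma).

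Lpcat1 (chromosome 13, 73467231 to 73516420) encodes an acyltransferase that makes the saturated phosphatidylcholine of surfactant. It had the longest acetylated length of the 10 genes in all 4 libraries, in the largest domain, of 109 kb. As a share of the domain, Sftpb was higher in epithelium replicate 1, at 27.8% against 21.2%. Lpcat1 held 23.1 and 24.7 kb in epithelium, against 13.2 and 6.79 kb in mesothelium. By length, not scaled to domain size, this put it at percentiles 99.3 and 99.5 of all coding domains in epithelium. In mesothelium they were 98.3 and 94.1. Lpcat1 was thus acetylated in both cell types, and the groups did not overlap. The log2 difference was 1.23 (SE 0.39, adjusted p = 0.0793, limma), and 1.73 without mesothelium replicate 1 (adjusted p = 0.000946). Without mesothelium replicate 2 it was 0.68 (adjusted p = 0.299, limma), and with 5 kb flanks in place of 50 kb 0.40 (adjusted p = 0.696).

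The Lpcat1 regions with the clearest difference between the cell types lay upstream of the gene. A 7.19 kb region 27.8 kb upstream (73432213 to 73439402) held 3.40 and 3.95 kb in epithelium, in peaks that met only at their ends, and no peak in mesothelium. A 9.18 kb region 16.8 kb upstream (73441228 to 73450406) held 7.19 and 5.65 kb in epithelium, 0.892 kb in mesothelium replicate 1 and none in replicate 2. Within the gene, a 12.7 kb region (73472456 to 73485177) was present in all libraries, with 7.58 and 8.20 kb in the epithelium libraries, and 7.90 and 3.6 kb in mesothelium. The start of Lpcat1 had a peak within 1 kb in all 4 libraries, the sole start among the 10 genes with one in both epithelium libraries. Its neighbours held less, in smaller domains: Mrpl36 held 2.43 and 4.00 kb of 53.7 kb in epithelium, and Slc6a3 0 and 0.338 kb of 65.1 kb.

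Cebpa (chromosome 7, 35119293 to 35121928) encodes a leucine-zipper factor that drives type 2 maturation and surfactant genes. It held 2.66 and 4.67 kb in epithelium against 0.690 and 0.852 kb in mesothelium, without overlap. The log2 difference of 1.61 (SE 0.69) did not pass (adjusted p = 0.215, limma). Its peaks with the highest −log10 q lay 4.85 kb upstream of the start (35112650 to 35114440). That region held 1.79 and 1.47 kb in epithelium with a −log10 q of 2.85 and 3.02, and 0.690 kb in mesothelium replicate 1 with a −log10 q of 1.32. At the start itself, mesothelium replicate 2 had a 0.852 kb peak 0.172 kb upstream, and no epithelium library had a peak within 1 kb. The flanking genes Gm45095 and Slc7a10 held at most 0.907 kb in any library.

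Start peaks of the 10 genes were mostly seen in a single epithelium library. A peak within 1 kb of the start (of either gene end for Sftpc, Sftpd and Napsa) was present at 5 genes in epithelium replicate 1 and 3 in replicate 2, and at 1 and 3 genes in mesothelium replicates 1 and 2. The corresponding shares of coding genes were 26.4%, 26.5%, 25.6% and 33.4%. Only Lpcat1 had a start peak in both epithelium libraries, against 16.7% of coding genes, and only Lpcat1 in both mesothelium libraries, against 20.4%. Allowing 2 kb, Abca3 joined Lpcat1 in epithelium.

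Merging peaks of the 4 libraries gave 63 regions in the 10 domains. Of these, 39 (61.9%) had a peak in a single epithelium library alone, against 44.7% of regions genome-wide, and 6 (9.52%) in a single mesothelium library alone, against 36.1%. A peak in both epithelium libraries was found in 13 regions, a pattern of 9.06% of regions genome-wide. Of the 13, 5 had none in mesothelium: those of Lpcat1, Slc34a2, Sftpb, Abca3 and Sftpd described above (the last pair, narrower than the others, named after their values were seen). No region was present in both mesothelium libraries alone. Genome-wide, 3.31% of 132212 regions had both epithelium libraries alone and 2.60% both mesothelium libraries alone. Another 6 of the 13 regions also had a peak in mesothelium replicate 1 but not replicate 2 (1 at Sftpa1, 2 at Sftpb, 2 at Lpcat1 and 1 at Cebpa), and none had one in replicate 2 alone. Genome-wide these patterns held 1752 and 1575 regions. Mesothelium replicate 1 was the library with the higher epithelium-marker length (25.1 against 10.4 kb), and the part of that difference in these 6 regions was not tested. In the 10 domains the bases under peaks in both epithelium libraries were 0.200 of those under a peak in either, against 0.140 genome-wide, and Lpcat1 gave 10.1 of the 17.8 shared kb.

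The peaks of these genes were close to the average peak in enrichment. Their median deposited fold enrichment was 3.51 and 3.58 in epithelium replicates 1 and 2, against 3.47 and 3.48 over all peaks of these libraries. Of the epithelium peaks in the 10 domains, 30.8% and 31.4% had a −log10 q of 2 or more, against 24.2% and 24.1% of all peaks. In mesothelium the shares were 17.6% and 12.5% of 17 and 8 peaks, against 31.5% and 53.1% of all peaks. With peaks of that strength alone, 6 genes still held a peak in both epithelium libraries (Sftpa1, Sftpb, Sftpd, Slc34a2, Lpcat1 and Cebpa), and in mesothelium such peaks were left at Slc34a2 and Lpcat1. The 42.6% of coding genes given above is for peaks of any strength. The share at this strength is not given, so the count only describes these genes.

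The direction of these differences was kept under most alternative processing. Of 152 log2 differences of the 9 tested genes under 19 alternatives, 149 were above 0, and the 3 below 0 were all of Napsa. The replicate block and the other length filters leave each log2 difference as it was. Where both epithelium libraries exceeded both mesothelium libraries, few alternatives could turn the sign, so this count only describes the direction. The calls moved more: Sftpb and Sftpd lost theirs in 9 and 11 of 18 alternatives, and Lpcat1, Slc34a2 and Lamp3 gained one in 4, 2 and 1. Sftpa1, Abca3, Cebpa and Napsa were called in none (lowest adjusted p 0.0543, 0.0565, 0.111 and 0.428, limma).

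**Figure D3:**
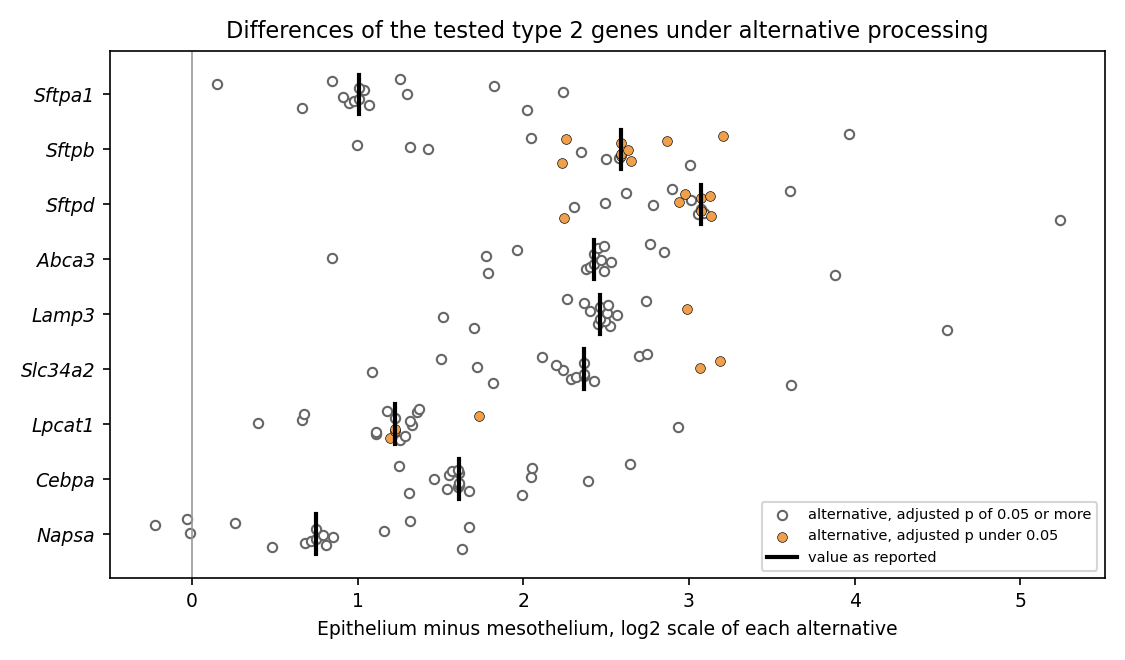
Epithelium minus mesothelium log2 difference of each tested type 2 gene as reported (black bar) and under each alternative (points, filled at an adjusted p under 0.05), on the scale of each alternative. All points lie right of 0 except 3 of Napsa, and filled points are most frequent at Sftpb (9) and Sftpd (7).

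Regulators of lung epithelium, a list of 24 known genes with other domain lengths, had a median of 10.5 and 11.9 kb in the epithelium libraries and 2.30 and 0.506 kb in mesothelium. Of 23 tested, 9 were longer in epithelium and 1 in mesothelium. The median log2 difference of the 23 was 1.89, against 2.37 for the 9 tested type 2 genes and -0.03 over all tested domains. Foxa2, a forkhead factor of endoderm, held 36.3 and 45.5 kb in epithelium, and Nkx2-1, the homeodomain factor that specifies lung epithelium, 28.1 and 33.7 kb. In mesothelium, Foxa2 held 5.85 and 0.417 kb, and Nkx2-1 held 2.95 and 0 kb. Fgfr2, a receptor of the FGF signals that shape the lung, and the ETS factor Etv5 were also longer in epithelium (adjusted p = 0.000905 and 0.000783, limma). Nfia, a nuclear factor I gene, was longer in mesothelium, at 72.8 and 45.7 kb, than in epithelium, at 34.4 and 28.2 kb (adjusted p = 0.0411, limma). A start peak in both epithelium libraries was present at 15 of these 24 genes, against 1 of the 10 type 2 genes. The other C/EBP genes of the list, named after their values were seen, did not pass. Cebpd held 2.17 and 0 kb in mesothelium and no peak in epithelium (adjusted p = 0.552, limma). Cebpb held 4.00 and 2.91 kb in the epithelium libraries, and 0.633 and 0.410 kb in mesothelium (adjusted p = 0.15, limma).

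Most genes on the list of lipid synthesis held peaks in both cell types, but not all did. Of 24 tested among 28 genes, 1 was longer in epithelium and none in mesothelium, with a median log2 difference of 0.15. That gene was Chka, whose choline kinase starts phosphatidylcholine synthesis, with 19.7 and 12 kb in epithelium against 3.78 and 0.520 kb in mesothelium, a log2 difference of 2.87 with an SE of 0.62 (adjusted p = 0.00975, limma). A peak in both libraries of a cell type was present at 22 of the 28 in epithelium and 21 in mesothelium. The shares of all coding genes were 42.6% and 41.5%. Abcg1, Agpat2 and Pcyt1b had no peak in mesothelium, and Chkb, Elovl1 and Mfsd2a none in epithelium, all named after their values were seen. Of 17 genes of surfactant processing and clearance, 10 were tested and none passed, with a median log2 difference of 0.46. Lyz1 and Lyz2, lysozyme genes that mature type 2 cells express, and Bpifa1 had no peak in any library, and these were named after their values were seen.

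Of 25 other genes known as type 2 markers, 19 were tested, and 5 were longer in epithelium and none in mesothelium, with a median log2 difference of 1.38. Apart from Etv5 they included Ank3, an ankyrin gene (11.1 and 17.4 kb against 0.838 and 0.502 kb, adjusted p = 0.00118, limma), Ppp1r14c and the proteoglycan gene Sdc1. Type 1 markers were longer in epithelium at 4 of 15 tested genes, with a median of 1.5: Cldn18, a claudin of alveolar junctions, Sema3e, Pdpn and Lmo7. Cav1, the caveolin gene, was longer in mesothelium. Of the 10 airway markers, 3 were tested and none passed. The 2 calls among the 9 tested type 2 genes stood beside 4 among the 15 tested type 1 markers, and no difference between the lists was tested. Pdpn, among the 4, encodes the podoplanin that both sort gates required.

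**Figure D4:**
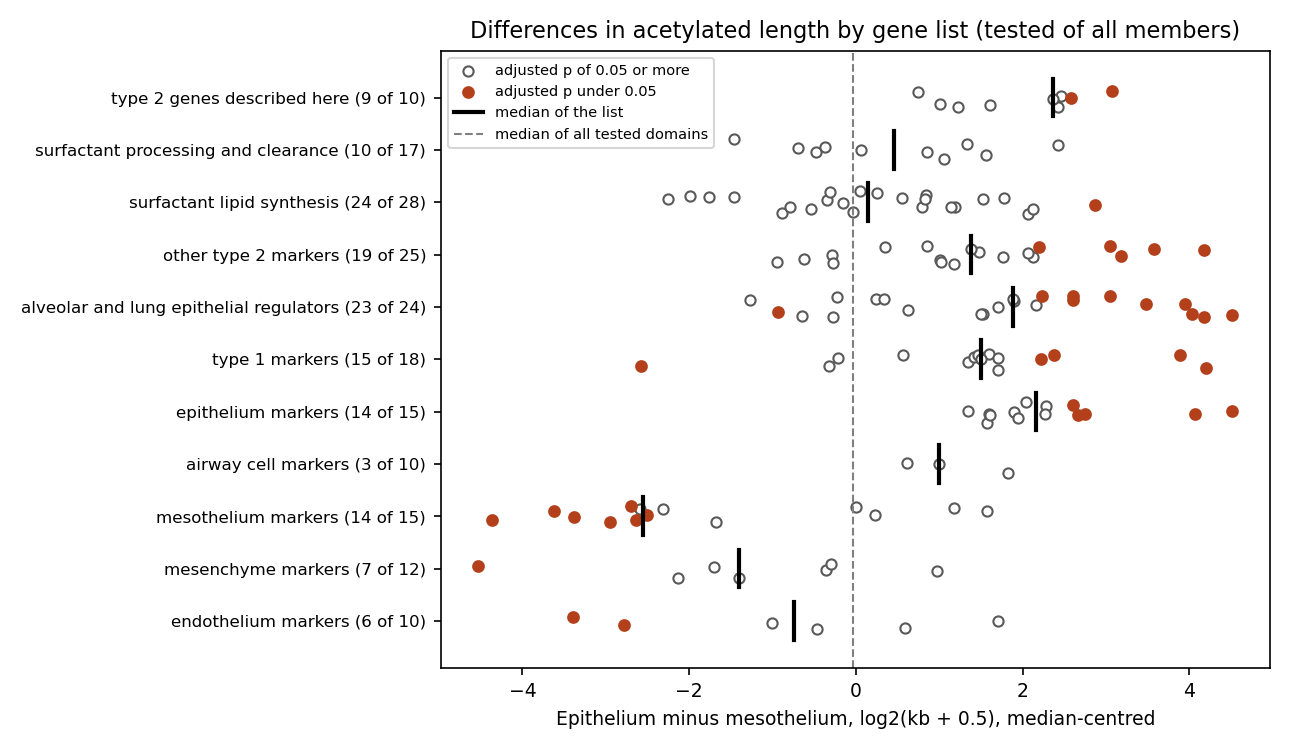
Epithelium minus mesothelium difference in log2(kb + 0.5) for each tested gene of 11 lists, with filled points at an adjusted p under 0.05, a bar at each list's median and a dashed line at the median of all tested domains (-0.03). The type 2 genes described here all lie right of 0 (median 2.37), with Sftpb and Sftpd filled. Single genes among the lung regulators and the other type 2, type 1 and epithelium markers reach further right than any of them.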

How the data were processed

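H3K27ac CUT&RUN was done on sorted cells with a commercial kit and paired-end sequencing, as the labels' protocols state. In the submitters' processing notes stand, among other tools and without roles, Bowtie2 2.5.3, MACS2 2.2.9.1 and bedtools 2.31.1, and the build mm10. Which control the peak caller used is not given in the sources used here. For each library there is a separate list of broad peaks, whose names carry that library's title, and the deposited score column was not used. The deposited fold enrichment (a ratio over the caller's background), −log10 p and −log10 q are the authors' own values per peak and served to describe, rank or filter peaks within a list. The lists hold no counts, so no count model was run.

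Only peaks on the 19 autosomes and the sex chromosomes entered, so 1 to 8 peaks per library were left out. Gene positions came from RefSeq (GRCm38.p6). Gene starts came from the RefSeq promoter table, which matched 17492 of 21887 coding genes and 7 of the 10 type 2 genes (not Sftpc, Sftpd and Napsa), and either gene end was used for the rest. All list symbols matched. Peaks were merged where they overlapped by at least 1 bp. The test, limma 3.58.1 in R 4.3.3, used log2(kb + 0.5) of the length under peaks. Each library was centred on its median over the 6915 domains that held a peak in every library. The prior spread followed the mean length, and p-values were adjusted by Benjamini-Hochberg over the 10481 domains whose mean reached 0.5 kb. The domains, regions and counts were computed in Python 3.11.15 with numpy 2.4.6 and pandas 2.3.3, and figures drawn with matplotlib 3.10.9. The coverage and limma steps were tested on simulated data.

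The genes and lists were chosen with earlier results of these data known. Named were the 10 genes, the nearest coding gene on each side, up to 4 called genes per list and direction with the smallest adjusted p, and regions and promoters with peaks in both epithelium libraries. The sample titles gave the groups. Alternatives were tried for the pseudocount, scaling, length filter, peak threshold and number, domain, start window, merging rule, number of peaks in place of length, a block on replicate number, and 1 library left out at a time. A minimum peak width of 1 kb was chosen after seeing the data.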

Additional observations from a re-analysis of the deposited data

How the results depend on the processing

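Across 19 alternatives, some of which cannot change a log2 difference, the tested type 2 genes gave 152 such differences, of which 149 were longer in epithelium. In these, 122 kept their side of the threshold, 20 lost a call (9 of Sftpb and 11 of Sftpd) and 7 gained one (4 of Lpcat1, 2 of Slc34a2 and 1 of Lamp3). The 3 that reversed were all of Napsa: -0.012 with 50 kb flanks not cut, -0.22 without mesothelium replicate 2 (the range on leaving out 1 library was -0.22 to 1.67) and -0.029 with peaks of at least 1 kb. The cause was not tested.

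The 2 calls among the type 2 genes became 0 with 0.1 kb added, with scaling to total length, with quantile normalization, with peaks at a −log10 q from 2 or from 4 upward, and with peaks of at least 1 kb. The count became 1 in 4 settings. With equal numbers of peaks that call was Sftpb, and with flanks not cut it was Sftpd. With 5 kb flanks it was Slc34a2 and with the number of peaks Lamp3, so both calls were lost there. Leaving out 1 library gave 0 to 4: 0 without epithelium replicate 1, 1 without epithelium replicate 2 and 4 without mesothelium replicate 1. Over all domains, the 265 longer in epithelium and 148 in mesothelium became 2 and 2 with 0.1 kb added (1651 at unadjusted p under 0.05), 114 and 94 scaled to total length, and 124 and 93 after quantile normalization. The mesothelium count was 93 without centring. Both counts were 0 from a −log10 q of 2 upward (limma, 960 of 6339 domains at unadjusted p under 0.05) or 4 (23 of 628, with none of the 10 genes tested), and with peaks of at least 1 kb (1653 of 7421). With the number of peaks they were 642 and 516. Leaving out 1 library gave 80 to 458 longer in epithelium and 107 to 162 in mesothelium; the epithelium count was 80 without epithelium replicate 2, 111 without epithelium replicate 1 and 458 without mesothelium replicate 1. A fit that leaves out 1 library takes its spread from the other pair and assumes that the lone library varies alike. The 9 genes with a peak in both epithelium libraries became 0 when a −log10 q of 4 was required, and 6 to 10 under the other alternatives. Shares of all coding genes under these alternatives are not given. The 1 gene with a start peak in both became 0 when a −log10 q of 2 or 4 was required, and 2 within 2 kb of the start. The 5 regions of both epithelium libraries alone were 6 when a −log10 q of 2 was required and also 6 when peaks were merged only past an overlap of 50% of the shorter one.

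The replicate numbers pair nothing in the labels. The replicate 2 minus replicate 1 difference in mesothelium correlated with that in epithelium at 0.029 over 10481 tested domains. With the replicate block, 2 type 2 genes, 339 domains longer in epithelium and 203 in mesothelium were called. Depth is unknown, so a missing peak cannot be told from a shallow library.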
